A study of Homo sapiens with 20 samples.

Results

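Cytoplasmic dynein-1 and dynactin, the machine that moves cargo toward the minus ends of microtubules, were followed through 10 of their subunit genes. The members were taken by gene symbol from an expression table of 36076 genes, and each symbol matched 1 row. They are 4 dynein-1 genes, namely the heavy chain DYNC1H1, the intermediate chain DYNC1I2 and the light intermediate chains DYNC1LI1 and DYNC1LI2, and 6 dynactin genes, DCTN1 to DCTN6. mRNA-seq was performed in the human lung cancer lines A549, PC9, H1299, H1792, CL1-0 and CL1-5, with 1 Mock library (PBS-treated) and 1 decitabine (DAC) library per line. DAC, a cytosine analog that traps DNA methyltransferases, was given at 100 nM for 72 h and followed by 3 days without drug, and Omni-ATAC-seq was added for A549, H1299, CL1-5 and PC9 (8 libraries). All groups share the same culture medium, none carries an engineered allele, and each line is a single established culture, so that the cell lines are the only replicates. CL1-0 and CL1-5 share part of their name, and the labels do not say whether they are related. Counts over lines and the test below take them as separate.

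Dynein-1 walks along microtubules with a pair of heavy chains, each of which holds the ATPase motor and the microtubule-binding stalk. The intermediate and light intermediate chains sit on the tail of the heavy chain and hold cargo adaptors and dynactin. Dynactin is built around a short filament of the actin-related protein ARP1, carries a shoulder of p150Glued (DCTN1), dynamitin (DCTN2) and p24 (DCTN3), and ends in a pointed-end complex that includes p62 (DCTN4), p25 (DCTN5) and p27 (DCTN6). Together they carry endosomes, Golgi membranes and the centrosome, and they act at kinetochores and the spindle in dividing cells.

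Between 22234485 and 25303899 reads per library fell on genes, except in H1299 with 59735913 reads in Mock and 52634234 reads after DAC. In the H1299 libraries 85.5% and 81.9% of low values were even numbers of reads, against 39.2 to 41.5% elsewhere, and H1299 counting intervals were therefore computed with reads counted in pairs. The lung lineage genes NKX2-1, SFTPB and SFTPC stayed at or below 0.384 FPKM in all 12 libraries. Of 5 epithelial genes, the keratins KRT8 and KRT18 were low only in CL1-0 (KRT8 at most 1.05 FPKM there and 37.8 to 1578 FPKM elsewhere), while EPCAM, KRT19 and CDH1 were also low in Mock CL1-5 (0.132, 0.758 and 0.478 FPKM) and Mock H1299 (0.0555, 0.0150 and 0.0113 FPKM). Of 3 leukocyte genes, PTPRC and CD3E did not exceed 0.0759 FPKM in any library, and CD14 had 4.23 FPKM in Mock A549 and 7.38 after DAC, and at most 0.287 FPKM in the other lines. FPKM sums differed between Mock and DAC within a line (416327 and 326951 in A549), and rescaling to a common sum moved the median change of all genes over 5 lines from 0.07 to 0.17 on the log2 scale.

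All 10 genes were expressed in all 12 libraries, with 286 to 82931 reads each. Levels are given as FPKM (fragments per kilobase of exon, scaled by depth), which compares genes per length. The order of genes therefore depends on the exon length assigned to each. DCTN5 (12.7 kb), last in this order, had 1408 to 4615 reads per library, and DCTN6 (1.99 kb) had 286 to 656. In Mock cells the mean levels over 6 lines ran from 58.5 ± 32.0 FPKM for DCTN2 (SD, n = 6) to 6.17 ± 0.953 FPKM for DCTN5 (SD, n = 6). DYNC1H1 followed DCTN2 at 49.5 ± 28.8 FPKM (SD, n = 6) and DYNC1I2 came next at 32.4 ± 14.7 FPKM (SD, n = 6). DCTN1 averaged 20.7 ± 5.78 FPKM (SD, n = 6) and DCTN3 averaged 14.8 ± 5.83 FPKM (SD, n = 6). DYNC1LI1, DCTN4 and DYNC1LI2 lay together at 12.2, 11.9 and 11.7 FPKM, ahead of DCTN6 at 8.82 FPKM. The subunits thus stood at the 70.2nd to the 96.7th percentile of the 21744 genes with a mean of at least 0.1 FPKM in Mock.

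Few neighbours in this order were separated in every line. Only DYNC1I2 and DCTN1 kept their order in 6 of 6 Mock libraries, and they did so in 6 of 6 DAC libraries as well. DCTN2 exceeded DYNC1H1 in 4 of 6 Mock libraries, and DYNC1H1 exceeded DYNC1I2 in 3 of 6. DYNC1LI1 exceeded DCTN4 in 3 of 6 lines, DCTN4 exceeded DYNC1LI2 in 4 of 6, and DCTN6 exceeded DCTN5 in 3 of 6.

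For most members the lines differed more from each other than Mock differed from DAC. The SD of log2 levels between Mock lines was larger than the median size of the change within a line for 10 of 10 members, and the SD between DAC lines for 9 of 10. The exception was DYNC1LI2, with an SD of 0.50 between Mock lines and 0.30 between DAC lines, a median change of 0.44 and a largest change of 1.04. DCTN6 spanned a 4.86-fold range between Mock lines, DCTN2 a 4.54-fold range and DYNC1H1 a 4.07-fold range. DCTN1, the subunit that binds dynein and microtubules, spanned only a 1.92-fold range, and DCTN5 spanned 1.45-fold. The SD of the log2 Mock levels between lines was 0.87 for DYNC1H1, 0.81 for DCTN2 and 0.23 for DCTN5. The median size of the log2 difference between DAC and Mock in a line was 0.16 for DYNC1H1, 0.40 for DCTN2 and 0.17 for DCTN5.

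**Figure D1:**
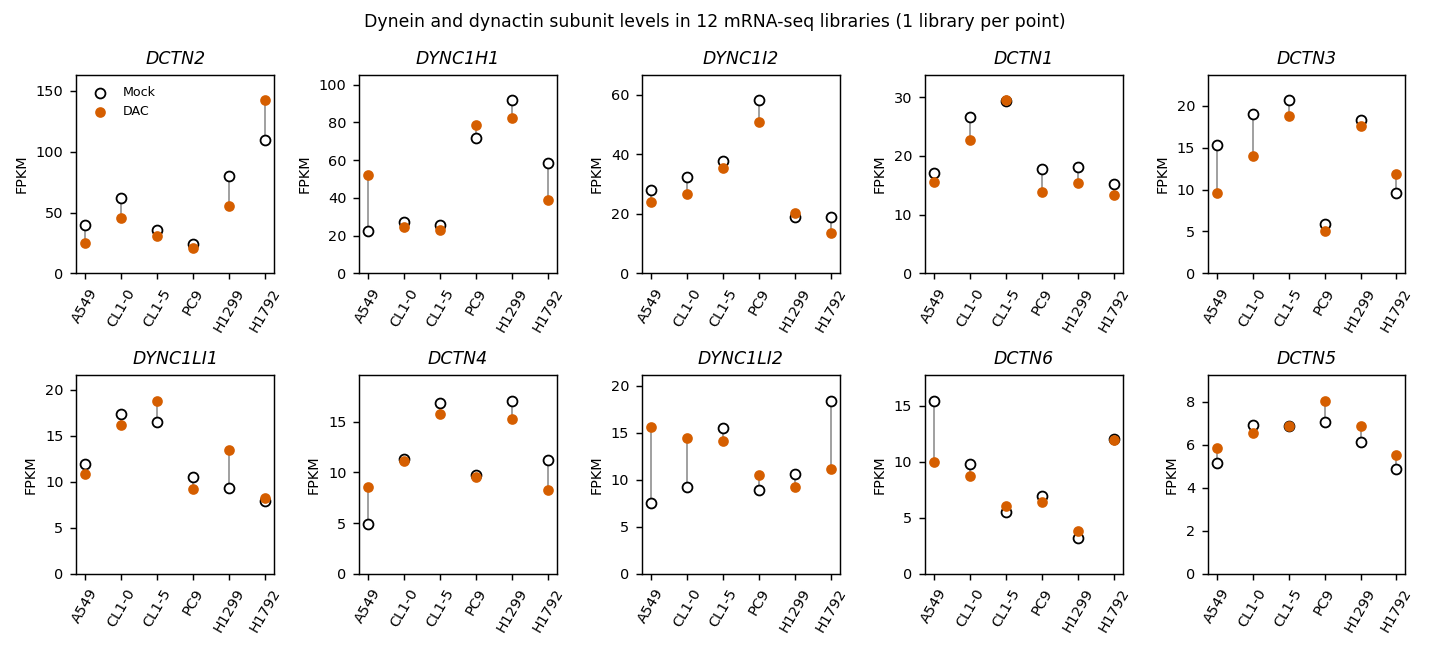
FPKM of each subunit gene (vertical axes from 0) in Mock (open circles) and DAC (filled circles) libraries of 6 lung cancer lines, 1 library per point, in the order of the mean Mock level. DCTN2 is highest in H1792 (109 FPKM in Mock and 142 after DAC), and DYNC1H1 goes from 22.5 to 52.0 FPKM in A549.

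DYNC1H1 encodes the motor chain itself (GRCh37 chr14:102430910-102522780, 15.8 kb of exon sequence). Its Mock levels were 22.5 FPKM in A549, 71.8 in PC9, 27.1 in CL1-0, 25.7 in CL1-5, 91.6 in H1299 and 58.4 in H1792. After DAC they were 52.0, 78.6, 24.4, 23.0, 82.6 and 38.9 FPKM in the same order. A549 therefore moved from the lowest Mock level of the 6 lines to a level near the middle, while CL1-0 and CL1-5 stayed low. The A549 difference was 2.31-fold, a log2 change of 1.20 with a 95% counting interval of 1.17 to 1.24. A difference of at least 2-fold upward in A549 was found for 9.42% of the 13233 genes averaging 1 FPKM or more, and DYNC1H1 and DYNC1LI2 were the only members past it. In the other lines the log2 change was 0.13 in PC9, between -0.16 and -0.15 in CL1-0, CL1-5 and H1299, and -0.58 in H1792. Over the 5 lines of the study's comparison (H1792 is left out of it) limma gave a mean log2 change of 0.17 with an SE of 0.22 and an adjusted p of 0.738. Without A549 the mean was -0.08.

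The light intermediate chains DYNC1LI1 and DYNC1LI2 are alternative subunits that occupy the same place in the motor. DYNC1LI2 (chr16:66754796-66785512, minus strand) had 7.53 FPKM in Mock A549 and 15.6 after DAC, and 9.25 FPKM in Mock CL1-0 and 14.5 after DAC. In PC9 it went from 8.89 to 10.5 FPKM, in CL1-5 from 15.5 to 14.1, in H1299 from 10.6 to 9.20 and in H1792 from 18.4 to 11.2. DYNC1LI2 was thus higher after DAC in 3 lines and lower in 3, and all 6 counting intervals left out 0. The mean over 5 lines was 0.31 with an SE of 0.20 (limma, adjusted p = 0.527).

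DYNC1LI1 (chr3:32567466-32612350, minus strand) had 11.9 FPKM in Mock A549, 10.5 in PC9, 17.4 in CL1-0, 16.5 in CL1-5, 9.26 in H1299 and 7.91 in H1792. After DAC it had 10.9, 9.17, 16.2, 18.8, 13.4 and 8.18 FPKM. It was clearly higher in H1299, by 1.45-fold, and its log2 change lay between -0.20 and 0.19 in the remaining lines. The mean log2 change over 5 lines was 0.06 with an SE of 0.14 (limma, adjusted p = 0.876), and without H1299 it was -0.06.

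The balance between these paralogs therefore shifted by line and in both directions. In Mock cells the DYNC1LI1 to DYNC1LI2 ratio was 1.58 in A549, 1.18 in PC9, 1.88 in CL1-0, 1.06 in CL1-5, 0.871 in H1299 and 0.430 in H1792. After DAC it was 0.697, 0.870, 1.12, 1.33, 1.46 and 0.734. The log2 ratio moved by -1.18 in A549, -0.75 in CL1-0 and -0.44 in PC9, and by 0.33 in CL1-5, 0.75 in H1299 and 0.77 in H1792. In FPKM, A549 and PC9 crossed from more DYNC1LI1 to more DYNC1LI2, and H1299 crossed the other way. Whether the ratio passes 1 depends on the exon lengths used (6.14 kb for DYNC1LI1 and 8.28 kb for DYNC1LI2). In reads, Mock PC9 already had more DYNC1LI2 (1530) than DYNC1LI1 (1342), so PC9 did not cross. With 1 library per line and treatment, the difference between lines was not tested.

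The promoters of the paralogs are shown because both are CpG-rich and hold several GC boxes (GGGCGG on either strand), the letters printed in capitals. They are the 250 bases before the RefSeq start, found without mismatch in GRCh37 at chr3:32612351-32612600 and chr16:66785513-66785762, both read from the minus strand.
DYNC1LI1: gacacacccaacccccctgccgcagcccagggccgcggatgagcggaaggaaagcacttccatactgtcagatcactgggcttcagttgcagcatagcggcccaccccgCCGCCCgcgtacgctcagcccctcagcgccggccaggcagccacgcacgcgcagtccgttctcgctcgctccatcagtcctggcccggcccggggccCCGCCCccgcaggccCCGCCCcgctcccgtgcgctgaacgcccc
DYNC1LI2: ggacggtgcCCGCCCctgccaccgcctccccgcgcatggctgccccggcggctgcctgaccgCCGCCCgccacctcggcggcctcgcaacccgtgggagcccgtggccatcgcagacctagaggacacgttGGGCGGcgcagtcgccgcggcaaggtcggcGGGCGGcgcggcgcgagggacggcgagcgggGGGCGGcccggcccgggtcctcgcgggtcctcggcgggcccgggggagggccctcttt
In windows of 300 bases (250 before and 50 after the start), DYNC1LI1 held 34 CpG and 3 GC boxes and DYNC1LI2 held 42 CpG and 5 GC boxes. Over 35116 such windows of all genes the median was 14 CpG and the upper quartile 28, and 45.0% held a GC box. Both windows lay under an ATAC-seq peak in 8 of 8 libraries. The fold enrichment of the DYNC1LI2 peak went from 7.64 to 9.24 in A549, from 8.21 to 7.34 in H1299, from 6.31 to 4.88 in the libraries labelled CL1-5 and from 9.32 to 7.86 in those labelled PC9. This peak was thus higher after DAC only in A549, where 6 of the 9 members with a listed peak had a higher one, among them DYNC1LI1 and DCTN3, whose mRNA was lower there.

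DYNC1I2, the intermediate chain that ties the heavy chain to dynactin, was lower after DAC in 5 of 6 lines (chr2:172543919-172606668). Its levels went from 28.0 to 24.1 FPKM in A549, from 32.5 to 26.7 in CL1-0, from 37.9 to 35.4 in CL1-5, from 58.1 to 50.8 in PC9 and from 18.9 to 13.6 in H1792. In H1299 it went from 18.8 to 20.2 FPKM. These differences were of at most 0.48 on the log2 scale, and after rescaling to a common sum 4 of 6 were below 0. The mean over 5 lines was -0.14 with an SE of 0.11 (limma, adjusted p = 0.597).

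**Figure D2:**
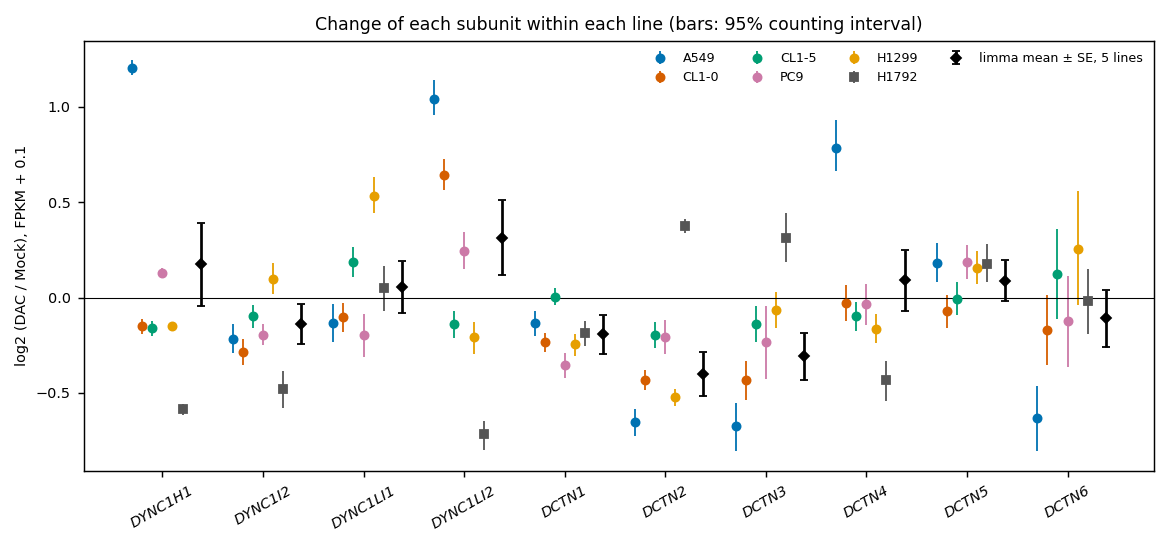
Log2 ratio of DAC to Mock (FPKM + 0.1) of each subunit in each line (coloured points, H1792 as squares, bars are 95% counting intervals) and the limma mean ± SE over the 5 lines without H1792 (black diamonds). DYNC1H1, DYNC1LI2 and DCTN4 spread by 1.22 to 1.79 log2 units between lines, DCTN2 and DCTN3 are below 0 in each of the 5 lines and above it in H1792, and DCTN1 and DCTN5 stay close together.

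Among the dynactin subunits, the shoulder genes DCTN2 and DCTN3 were lower after DAC in 5 of 5 lines. The change of DCTN3 in H1299 was within counting error. After rescaling to a common sum both genes stayed below 0 in 5 of 5 lines, in part by little. The PC9 values were then only -0.04 for DCTN2 and -0.07 for DCTN3, and DCTN3 in H1299 was at -0.03. No counting interval was computed for rescaled values. DCTN2 encodes dynamitin, the subunit whose excess is known to take dynactin apart (chr12:57923416-57941007). It went from 39.8 to 25.3 FPKM in A549, from 61.8 to 45.8 in CL1-0, from 35.7 to 31.2 in CL1-5, from 24.1 to 20.9 in PC9 and from 79.8 to 55.6 in H1299. In H1792 it went the other way, from 109 to 142 FPKM. The Mock and DAC levels of the 5 lines overlapped, since the lines differed more than the treatments, and the differences appear only within lines. The mean log2 change was -0.40 with an SE of 0.12, an unadjusted p of 0.0101 and an adjusted p of 0.286 (limma, n = 5 lines).

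DCTN3, whose product p24 joins dynamitin in the shoulder (chr9:34613542-34620520), went from 15.2 to 9.53 FPKM in A549, from 19.0 to 14.0 in CL1-0, from 20.6 to 18.7 in CL1-5, from 5.94 to 5.05 in PC9 and from 18.3 to 17.5 in H1299, where the 95% counting interval of the log2 change ran from -0.16 to 0.03. In H1792 it went from 9.54 to 11.9 FPKM, the same direction as DCTN2 in that line. The mean log2 change over 5 lines was -0.31 with an SE of 0.12, an unadjusted p of 0.0412 and an adjusted p of 0.383 (limma). The ratio of DCTN2 to DCTN3 was nearly the same before and after DAC in A549 (2.61 and 2.65), CL1-0 (3.26 and 3.26), CL1-5 (1.73 and 1.67) and PC9 (4.06 and 4.15), and moved in H1299 from 4.36 to 3.17. In H1792 it was 11.5 in Mock and little different after DAC.

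No member passed an adjusted p of 0.05 in limma in either direction. Over all 22603 genes tested, 0.119% were called higher and 0.0% lower, so the test called few genes of any kind. At an unadjusted p under 0.05, 2 of 10 members (DCTN2 and DCTN3) were lower, against 4.4% of all genes, and 0 were higher, against 8.07% of all genes. On recovered reads with limma-voom 0 members were called as well. These 2 members were also the only ones lower in 5 of 5 lines, against 4.39% of all genes and 6.93% of genes averaging 1 FPKM or more, and no member was higher in 5 of 5 lines, against 6.76%. The median change of the 10 members was -0.03, beside 0.07 for all genes tested and 0.01 for genes averaging 1 FPKM or more. Among genes averaging 10 FPKM or more the median was -0.07, and that of the members in this range was -0.04.

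DCTN1 encodes p150Glued, which holds dynein's intermediate chain and carries the microtubule-binding CAP-Gly domain (chr2:74588281-74619214, minus strand). It went from 17.2 to 15.6 FPKM in A549, from 26.6 to 22.6 in CL1-0, from 17.7 to 13.8 in PC9, from 18.2 to 15.3 in H1299 and from 15.3 to 13.4 in H1792. In CL1-5 it was 29.3 FPKM in Mock and 29.4 after DAC, within counting error. DCTN1 was therefore lower in 5 of 6 lines by at most 0.35 on the log2 scale, the narrowest spread among the members after DCTN5. With the length trend of each library removed it was lower in A549 (-0.45), CL1-0, PC9 and H1299 and higher in CL1-5 (0.12) and H1792 (0.10), and after rescaling to a common sum it was higher in A549 (0.21). The mean over 5 lines was -0.19 with an SE of 0.10 (limma, adjusted p = 0.467).

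DCTN1 has several annotated promoters, and their sequences are shown because they differ in CpG content and in the ATAC-seq peaks over them. Each sequence is the 250 bases before a RefSeq start, located in GRCh37 by exact match at chr2:74618994-74619243 (outermost), chr2:74607439-74607688 (middle) and chr2:74601795-74602044 (innermost), and read from the minus strand. Capitals mark GC boxes (GGGCGG on either strand) in the first and the palindromic cAMP response element letters TGACGTCA in the last, and the middle one held none of the letters searched.
DCTN1 outermost: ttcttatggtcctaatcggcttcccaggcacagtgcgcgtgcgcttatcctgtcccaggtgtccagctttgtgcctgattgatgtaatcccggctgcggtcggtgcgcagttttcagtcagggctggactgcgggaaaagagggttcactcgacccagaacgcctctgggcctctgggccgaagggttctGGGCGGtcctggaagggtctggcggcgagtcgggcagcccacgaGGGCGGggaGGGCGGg
DCTN1 middle: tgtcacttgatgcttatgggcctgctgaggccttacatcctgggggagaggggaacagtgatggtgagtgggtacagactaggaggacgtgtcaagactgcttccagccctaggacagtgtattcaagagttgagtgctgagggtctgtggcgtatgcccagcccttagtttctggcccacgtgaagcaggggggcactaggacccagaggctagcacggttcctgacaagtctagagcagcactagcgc
DCTN1 innermost: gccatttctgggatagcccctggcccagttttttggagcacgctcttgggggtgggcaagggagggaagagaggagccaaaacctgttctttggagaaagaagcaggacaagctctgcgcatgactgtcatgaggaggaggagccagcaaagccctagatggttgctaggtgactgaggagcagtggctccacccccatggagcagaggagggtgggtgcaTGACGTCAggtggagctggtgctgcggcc
In 300-base windows the outermost promoter held 26 CpG and 3 GC boxes, while the middle and innermost promoters held 5 CpG each, fewer than the median of 14. TGACGTCA was found in 1.85% of all promoter windows and in 1 of the 14 windows of the members. GENCODE protein-coding transcripts from the innermost start (DCTN1-204 and DCTN1-227) encode 1139 and 1144 codons, against 1253 to 1278 codons for the complete ones from the middle start and 1236 to 1261 for those from the outermost start. As background, a shorter p150Glued form that lacks the CAP-Gly domain is known.

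Peaks lay over the outermost and the middle DCTN1 promoters in 8 of 8 ATAC-seq libraries. At the outermost start the fold enrichment over background, as the peak caller gave it, went from 5.18 in Mock to 5.58 after DAC in A549, from 6.19 to 4.93 in H1299, from 5.13 to 3.75 in the libraries labelled CL1-5 and from 7.64 to 5.82 in those labelled PC9. At the middle start it went from 4.13 to 4.22, 3.77 to 4.39, 3.48 to 3.75 and 3.24 to 3.95 in the same order. The outermost start was thus lower after DAC in 3 of 4 lines and the middle start slightly higher in 4 of 4, and in each library the outermost peak was at least as strong as the middle one.

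At the innermost DCTN1 start, within 500 bases, a peak was called in A549 in Mock (3.11) and after DAC (4.93), and in the other lines only after DAC. Its fold enrichment after DAC was 2.51 in H1299, 2.95 in the library labelled CL1-5 and 3.27 in the library labelled PC9. A peak after DAC and none in Mock in at least 3 of 4 lines was found at 0.812% of 37426 starts of protein-coding transcripts, and the opposite pattern at 0.0748%. This start was picked out after its values were seen. DAC lists held more peaks than Mock lists in each line (78199 and 58734 in A549, for example). With both lists of a line cut to an equal number of peaks the innermost start kept the pattern in 2 lines, and over all starts the balance turned, with 0.323% gained and 1.67% lost in at least 3 lines. At a q-value under 0.01 it kept the pattern in 3 lines, with 0.398% of all starts gained and 0.0908% lost. The expression table holds 1 value per gene, so transcripts from the 3 starts are not told apart in the FPKM of DCTN1.

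**Figure D3:**
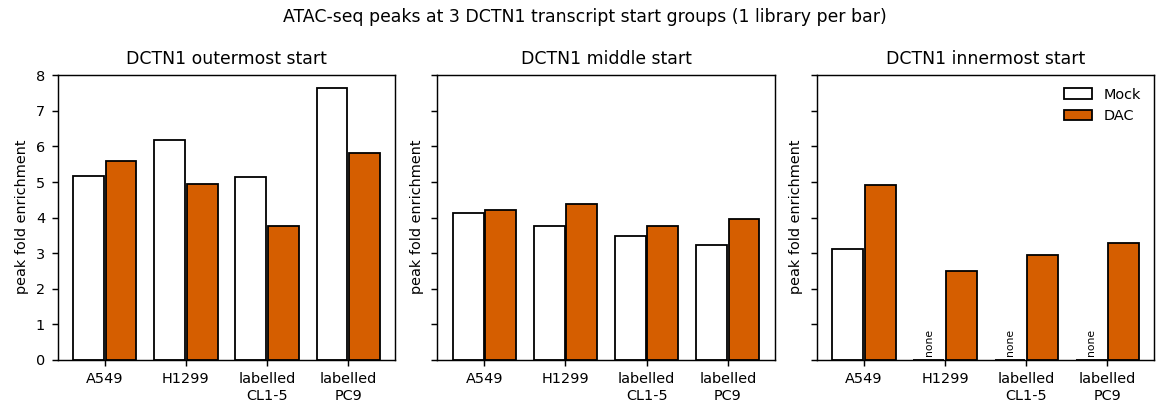
Fold enrichment of the strongest ATAC-seq peak within 500 bases of 3 groups of DCTN1 transcript starts, in Mock (open bars) and DAC (filled bars) of 4 lines, 1 library per bar, with "none" where no peak was called. The outermost and middle starts have a peak in 8 of 8 libraries, and the innermost start has one in A549 Mock and in the 4 DAC libraries.

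The pointed-end subunits DCTN4, DCTN5 and DCTN6 showed no shared direction. DCTN4 (chr5:150088002-150138657) went from 4.93 to 8.57 FPKM in A549, a 1.74-fold difference, and its log2 change lay between -0.16 and -0.03 in the other lines of the 5 and was -0.43 in H1792. Its mean over 5 lines was 0.09 with an SE of 0.16 (limma, adjusted p = 0.819), and -0.08 without A549. DCTN5 (chr16:23652787-23688793) stayed between 4.89 and 8.05 FPKM in all 12 libraries. DCTN6, the shortest member with 1.99 kb of exon sequence, went from 15.4 to 9.94 FPKM in A549, and in the other 5 lines its counting interval included 0.

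Within single lines, 41 of the 60 differences between DAC and Mock were below 0, against 48.8% of all genes averaging 1 FPKM or more. Most members average over 10 FPKM. All genes in that range had a median change of -0.07 over 5 lines, against 0.01 at 1 FPKM or more. Their share below 0 was not computed, so the excess over 48.8% is not read as particular to the members. After rescaling to a common sum 33 of 60 were below 0, against 43.1%, and with the length trend described next removed 38 of 60 were. On the deposited values the counting interval left out 0 in 48 of 60. For this count and for the one with the length trend removed, the share of all genes was not computed. Neither is therefore read as a result about the members. Members were lower in 6 of 10 cases in A549, 7 in PC9, 9 in CL1-0, 7 in CL1-5, 6 in H1299 and 6 in H1792. Of all genes averaging 1 FPKM or more, 51.4% were lower in A549, 50.2% in PC9, 53.5% in CL1-0, 47.5% in CL1-5, 42.8% in H1299 and 47.5% in H1792. CL1-0 was the line in which the members' share stood farthest from that of all genes. In bulk RNA a lower level in some cells and a slightly lower level in every cell cannot be told apart.

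The change of a member within a line moved with the length of its exons in A549, and less so elsewhere. In A549 the members over 8 kb had a median log2 change of 0.61, and those under 4.5 kb had one of -0.65. In H1792 the order was the opposite, with -0.39 and 0.31. All genes showed the same tendency, with medians of -0.37 for genes under 2 kb and 0.34 for genes over 8 kb in A549, and 0.28 and -0.27 in H1792. Spearman's rho between change and exon length over 13233 genes was 0.32 in A549, 0.16 in CL1-0, 0.05 in PC9, -0.09 in H1299, -0.18 in CL1-5 and -0.33 in H1792, and over the 10 members it was 0.83, 0.54, 0.45, -0.21, -0.13 and -0.47. GC content of the longest transcript, known for 13138 of these genes, gave a rho of -0.16 in A549, -0.35 in CL1-0, 0.11 in PC9, -0.15 in H1299, 0.13 in CL1-5 and 0.34 in H1792, larger in size than that of length in 4 lines, and over the 10 members 0.09, -0.24, -0.28, -0.61, -0.45 and 0.12. Length and GC content were themselves related (rho of -0.21). These are descriptions across genes of 1 pair of libraries, which share depth and scaling.

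With the length trend of each library removed, the A549 log2 change of DYNC1H1 was 0.70 instead of 1.20, that of DYNC1LI2 0.83 instead of 1.04, that of DCTN4 0.69 instead of 0.79, and that of DCTN6 -0.18 instead of -0.63. In H1792 DYNC1H1 then changed by -0.19 and DYNC1LI2 by -0.51. DCTN2 and DCTN3 stayed lower in 5 of 5 lines, with mean changes of -0.36 and -0.25 (limma, adjusted p = 0.249 and 0.345), and in H1792 they stayed higher, by 0.38 and 0.28.

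A promoter peak within 3000 bases of the start was listed for 9 of 10 members in 8 of 8 ATAC-seq libraries. For DCTN5 the peak over the start was assigned to a neighbouring gene, and by position a peak covered its start in 8 of 8 libraries (4.31 to 9.78 fold enrichment). DCTN4 had the strongest listed peaks, at 6.57 to 10.9 fold enrichment and the 90.9th to 97.7th percentile of 19052 genes, and DYNC1H1 the weakest, at 3.55 to 5.34 and the 39.3rd to 54.7th percentile. The order of promoter strength thus did not follow that of mRNA levels. DYNC1H1 had rank 2 in FPKM, and DCTN4 had rank 7.

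After DAC the members' promoter peaks were higher in 6 of 9 genes in A549, 1 of 9 in H1299, 0 of 9 in the libraries labelled CL1-5 and 1 of 9 in those labelled PC9. Of all genes with a peak in both libraries, 34.0%, 15.7%, 18.2% and 20.5% were higher. The median log2 ratio of fold enrichment was 0.03 for the members and -0.08 for all genes in A549, and -0.17 and -0.17 in H1299. No member lost its promoter peak after DAC. The labels of the CL1-5 and PC9 ATAC-seq libraries and the names inside their peak lists are exchanged. Of 48 genes expressed at 10 FPKM or more in PC9 and at 0.1 or less in CL1-5, 43 (Mock) and 45 (DAC) had a promoter peak where the label was CL1-5, and 19 and 24 had one where it was PC9. Values of these libraries are therefore tied to a label and not to a line.

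Of the 10 members, 9 had 14 RefSeq promoter windows, all found in GRCh37 without mismatch, and 14 of 14 lay under a peak in at least 1 library. GC boxes were found in 9 of 14 windows (45.0% of all windows), CCAAT in 5 (34.6%), CCGGAA in 4 (17.2%), TATAAA in 1 (11.5%) and the YY1 letters ATGGCGGC in 1 (3.0%), each on either strand. The palindromic NRF1 motif was found in 0 of 14 (1.24% of all). The DYNC1H1 window held 44 CpG, more than 95.8% of all windows. GGGCGG and its reverse complement can overlap other GC-rich letters, and a match is a description of the sequence.

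In some of the 60 pairs of member and line, the neighbourhood was high in the same line as the member. The pairs named here were picked after their values were seen. In Mock H1792 DCTN2 was 1.06 log2 units above its mean over the 6 lines. In these values the median deviation of all expressed genes in each library was subtracted as well. Of the 35 expressed genes within 1 Mb of DCTN2, 17 were also more than 1 unit above theirs, against 13.6% of all genes. Around DYNC1H1 6 of 12 neighbours were this high in PC9 (12.9% of all genes), where DYNC1H1 was 0.72 above its mean, and 4 of 12 in H1299 (14.0%), where it was 1.19 above. Around DCTN6 in A549 it was 4 of 10 (12.2%), with DCTN6 0.95 above. Around DCTN4 in H1792 7 of 19 neighbours were this high while DCTN4 itself was near its mean (-0.0050). Other members were high with few such neighbours. DYNC1I2 in PC9 was 0.93 above its mean, with 2 of 13. DCTN2 in H1299 was 0.72 above, with 6 of 35, and DYNC1LI2 in CL1-5 was 0.45 above, with 0 of 31. Copy number was not measured here.

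Over the 12 mRNA-seq libraries the members did not vary as 1 block. Among pairs of members Pearson's r of log2 levels was highest for DYNC1LI1 and DCTN1 (0.87) and lowest for DYNC1I2 and DCTN2 (-0.84). Mock and DAC libraries of a line are not independent, so these values describe 6 lines. Among 12274 other genes averaging 1 FPKM or more, those most like DCTN1 were CDK5RAP2 (r = 0.968), HARS2 (0.966) and EWSR1 (0.956). Those most like DYNC1H1 were BTBD7 (0.948), CDC14B (0.943) and PURB (0.936).

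Of 59 other genes of the pathway, 53 were tested and 0 passed an adjusted p of 0.05 in limma, with a median change of 0.03. At an unadjusted p under 0.05 in limma, 1 of the 53 was lower and 3 were higher, against 4.4% and 8.07% of all genes tested. Among those higher, DNAH3 and DNAH12 passed the filter of 0.1 FPKM only through their DAC values. The count of higher genes is therefore not read as a result about the pathway. Among 6 other dynein-1 chains tested, the lowest was the light chain DYNLRB1 (-0.36, SE 0.19, adjusted p = 0.458) and the highest the intermediate chain DYNC1I1 (0.81, SE 0.29, adjusted p = 0.339), which is known mainly from neurons. DYNC1I1 stayed low, between 0.0102 and 0.413 FPKM in Mock and between 0.118 and 1.19 after DAC, far under its paralog DYNC1I2.

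The 6 other dynactin genes had a median change of -0.14, between -0.31 for the capping protein CAPZB (adjusted p = 0.428) and 0.10 for CAPZA2 (adjusted p = 0.735). The 6 dynactin members themselves had a median of -0.15, and the 4 dynein-1 members had one of 0.12. Of the regulators LIS1 (PAFAH1B1), NDE1 and NDEL1, which help dynein into its active form, NDE1 was lowest at -0.22 and NDEL1 highest at 0.27. The 18 cargo adaptors had a median of 0.12, from RAB11FIP3 at -0.13 to HAP1 at 0.62. The 5 kinetochore genes lay between ZW10 at -0.16 and SPDL1 at 0.27.

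Dynein-2, the related motor of retrograde transport in cilia, had changes below 0 in 5 of 5 genes, from -0.67 for TCTEX1D2 to -0.21 for WDR60, with a median of -0.45, against 41.2% of all genes tested below 0. None passed the threshold (limma, adjusted p of 0.473 for TCTEX1D2 and 0.601 for WDR60). Within lines only DYNC2LI1 was lower in 5 of 5, and WDR60 was lower in 3 of 5. TCTEX1D2 had few reads, going from 66 to 13 in A549 and from 6 to 7 in PC9. The axonemal dyneins, motors of motile cilia and flagella, ran from DNAH1 at -0.34 to DNAH3 at 2.55 (limma, SE 0.61, adjusted p = 0.224). Of the 10 tested, 3 (DNAH3, DNAH6 and DNAH12) were higher in 5 of 5 lines, against 6.76% of all genes. Their means over 5 lines were 0.0219, 0.0645 and 0.0104 FPKM in Mock and 1.14, 0.141 and 0.242 FPKM after DAC. They passed the filter of 0.1 FPKM only through their DAC values, so this count is not read as a result about axonemal dyneins. DNAH3 went from 13 reads in Mock to 455 after DAC in A549, from 8 to 88 in PC9, from 4 to 29 in CL1-0, from 12 to 195 in CL1-5 and from 2 to 2876 in H1299, while in H1792 it had 2 and 6 reads. Its level after DAC was 0.0655 FPKM in CL1-0 and 3.64 FPKM in H1299. DNAH3 was thus nearly silent in Mock cells, and its estimate was larger than that of any subunit of the cytoplasmic machine. DNAH12, named after its values were seen, was called on recovered reads with limma-voom (3.68, adjusted p = 0.0318). That fit called 178 of 22603 genes higher and took the H1299 reads as they were, not in pairs. DNAH12 had 1 to 6 reads in the Mock libraries and entered only through its DAC values. This call is therefore not read as a result about DNAH12 either. The 8 proliferation genes, with a median change of 0.01, moved by line, with medians of -0.47 in A549, -0.40 in PC9, 0.02 in CL1-0, 0.24 in CL1-5 and 0.54 in H1299. In H1792, where DCTN2 and DCTN3 were higher after DAC, 8 of 8 were lower with a median of -1.27, and their part in the members' values was not tested.

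**Figure D4:**
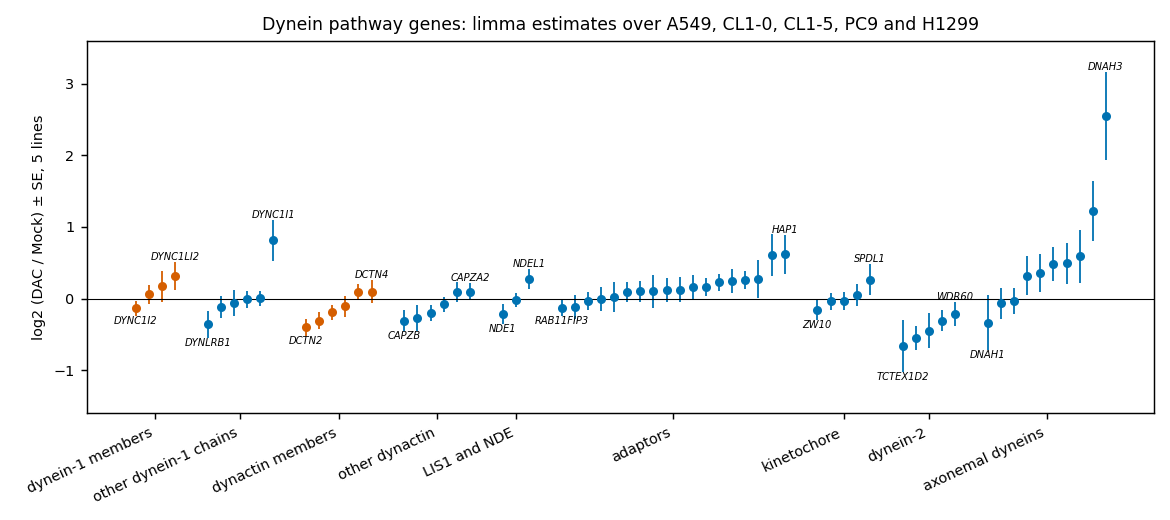
Limma estimates of the log2 ratio of DAC to Mock over 5 lines (points, bars are SE) for the members (orange) and the other dynein pathway genes tested (blue), grouped by role and ordered within a group, with the lowest and highest gene of each group named. No gene passes the adjusted threshold, dynein-2 lies below 0, and DNAH3 stands highest at 2.55.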

How the data were processed

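mRNA-seq values were taken from 1 table of the whole series, and Omni-ATAC-seq values from 1 peak list per library. For mRNA-seq, reads of stranded libraries were aligned to hg19 with RSEM and bowtie2 per the study's methods (the submitters' processing notes name TopHat2 2.1.1), counted on GENCODE genes, scaled with DESeq2 1.24.0 and deposited by the authors as FPKM. The authors also deposited a mean normalized signal per gene, which was used only to recover reads, and columns of their own comparison (fold change, its error, statistic and p-values), which were not used. For Omni-ATAC-seq the authors aligned reads with BWA 0.7.17-r1188, called broad peaks per library with MACS2 2.2.5, and deposited each peak's fold enrichment and −log10 q-value with its ChIPseeker 1.20.0 annotation. ATAC-seq depth is unknown here.

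Whole reads were recovered from FPKM and mean signal (100% of values within 0.05 of a whole read in each library). log2(FPKM + 0.1) of genes with a mean of at least 0.1 FPKM over 10 libraries was fitted with limma 3.58.1 (R 4.3.3, empirical Bayes with trend, cell line as a block, Benjamini-Hochberg adjustment over 22603 genes). Changes are on this scale and understate low genes. Libraries of the same line deviated together (r of 0.731 to 0.900 within a line and at most 0.115 between lines), so the line was kept as a block. With 1 library per line and treatment, p-values measure the spread between lines. Counting intervals (95%) use the recovered reads and cover counting error only. Exon length is that implied by FPKM and counts. The fit was tested on simulated data in which genes averaging 1 FPKM or more were changed equally in every line. That simulation does not cover changes that differ between lines, as those of several members do.

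Members and gene lists were chosen with earlier results of these data known. Named genes are the members, the lowest and highest gene of each list, and the 3 genes most like DCTN1 and DYNC1H1, and other genes were named after their values were seen. PECAM1 matched 0 rows. Promoter sequences are RefSeq's (GRCh38.p14 table), with positions from exact matches in GRCh37, and no window was used for DCTN6. Alternatives were H1792 added, no block, other pseudocounts, filters and scalings, voom, lines left out, and other peak sets and windows. The removal of the length trend (lowess, span 0.3) was chosen after seeing the data. Figures were drawn with matplotlib 3.10.9.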

Additional observations from a re-analysis of the deposited data

Results flagged for a closer look

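Among 30 sets of values examined for a sample far from the others, 3 held one, where chance gives about 5% of sets. DYNC1H1 changed by 1.20 on the log2 scale in A549, and the nearest of the other 4 lines was PC9 at 0.13. DCTN4 changed by 0.79 in A549, and the nearest of the other 4 lines was CL1-0 at -0.03. DCTN2 had 142 FPKM after DAC in H1792, and the nearest of the other 5 lines was H1299 at 55.6 FPKM.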

How the results depend on the processing

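No member passed the threshold under any of 18 other settings of the fit, where their adjusted p ran from 0.206 to 1, and the genes other than DCTN4, DCTN6, DYNC1H1 and DYNC1LI1 kept their direction in all settings run. Leaving out A549 changed the sign of DYNC1H1 (-0.083), DCTN4 (-0.081) and DCTN6 (0.021), and leaving out H1299 that of DYNC1LI1 (-0.062). With a line left out these genes reached 0.26, 0.16, -0.20 and 0.12 at the other end of their ranges. Rescaling to a common sum gave 0.014 for DCTN6. With the length trend removed DCTN6 was at 0.0028, and without A549 as well DYNC1H1 was at -0.045, DCTN4 at -0.074 and DCTN6 at 0.055. The median change of the members was 0.10 after rescaling, 0.0087 after quantile normalization, 0.015 with the length trend removed and -0.059 without A549 as well, and -0.12 to 0.0017 with a line left out. The cause was not tested. DCTN2 and DCTN3 together stayed under an unadjusted p of 0.05 in only part of the settings: with H1792 added and without the cell line block (no pairing of libraries) 0 members did. The block changed no adjusted call (0 members with and without it). Of the other pathway genes, voom called 1 (DNAH12, which passed the filter only through its DAC values). All genes called higher numbered 27 in the main setting, 178 with voom, 53 with H1792 added, 10 without the block, 0 with a pseudocount of 1, 2 without a filter, 13 at a mean FPKM of at least 10, 17 after quantile normalization, 6 without the trend, and 0 to 22 with a line left out. Neighbours in the order of levels that held in every Mock library numbered 1 to 2 with a line left out. Peak settings left 36 to 40 pairs of member and line with a promoter peak in both treatments. With 1 library per line and treatment, no difference between lines could be tested, and ATAC-seq depth is not known.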
